A study of Mus musculus with 24 samples.

Results

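Transcripts of red cells and neutrophils were followed through the mouse hippocampus in 9 genes, chosen by name from a table of 47593 genes. That choice was made with earlier results of these data known. Hbb-bs, Hbb-bt, Hba-a1, Hba-a2 and Alas2 are the 5 red cell transcripts, S100a8, S100a9 and Ngp are the 3 neutrophil transcripts, and Lcn2 is made by neutrophils and by other cells. All 9 were found in the table, and each was counted in at least 1 library. The question was whether red cell and neutrophil transcripts move together from library to library, and whether Lcn2 follows either of them. The hippocampi came from male C57BL/6J mice aged 8 to 12 weeks, either wild type (WT) or carrying a germline knockout of Tob, which the labels call KO and which is written Tob-KO here. Tissue of both genotypes was taken from naive mice and from mice 15 min, 1 h or 3 h after fear conditioning, in which tones ended with foot shocks. Each of the 8 groups had 3 mice, which gave 24 libraries of poly(A) RNA. The knockout is in every cell of the animal, blood cells included, and the methods do not say whether blood was flushed from the brain.

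Haemoglobin is built from pairs of α and β chains around haem. Hbb-bs and Hbb-bt encode adult β chains, Hba-a1 and Hba-a2 encode α chains, and Alas2 encodes the erythroid form of the enzyme that begins haem synthesis. Young red cells still carry these messenger RNAs, and neurons are also known to transcribe some globin. S100a8 and S100a9 encode the paired subunits of calprotectin, the most abundant cytosolic protein of mature neutrophils, while Ngp encodes a granule protein made mainly by neutrophil precursors. Lcn2 encodes lipocalin-2, which binds the iron carriers of bacteria. It is stored in neutrophil granules, and it is also induced in endothelium, choroid plexus and astrocytes by inflammation and stress.

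The sequence before the start of 6 of these genes is shown as a description, and its part in how the members move was not tested. In each line capitals mark the letters GATAA (GATA factors), CACCC (the box bound by KLF1), TATAA (TATA box), TTNNGNAA (C/EBP factors) or the motif of NF-kB, read on both strands. The stretches were taken from RefSeq promoters on GRCm38.p6 and end where an annotated exon begins, so some motifs closer to the start are not printed. For Lcn2, 197 of the 250 bases before the start lie in annotated exons. Its printed stretch begins only after exon sequence, 111 bases before the start, so letters farther away are not printed either. They lie at chr7:103828097-103828178 (reverse strand) for Hbb-bs, chr11:32296242-32296488 (forward strand) for Hba-a2, chrX:150547167-150547374 (forward strand) for Alas2, chr3:90695722-90695971 (reverse strand) for S100a9, chr9:110419558-110419746 (forward strand) for Ngp and chr2:32387798-32387850 (reverse strand) for Lcn2.
Hbb-bs: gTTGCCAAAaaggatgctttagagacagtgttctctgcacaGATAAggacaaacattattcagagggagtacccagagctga
Hba-a2: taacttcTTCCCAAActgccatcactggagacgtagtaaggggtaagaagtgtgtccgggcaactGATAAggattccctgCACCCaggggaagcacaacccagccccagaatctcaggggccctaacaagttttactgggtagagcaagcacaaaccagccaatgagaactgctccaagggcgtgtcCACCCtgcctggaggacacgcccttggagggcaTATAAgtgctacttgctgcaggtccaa
Alas2: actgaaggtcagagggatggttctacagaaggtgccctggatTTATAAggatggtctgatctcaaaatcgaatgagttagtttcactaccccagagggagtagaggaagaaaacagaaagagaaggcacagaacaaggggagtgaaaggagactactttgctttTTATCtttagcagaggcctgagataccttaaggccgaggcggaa
S100a9: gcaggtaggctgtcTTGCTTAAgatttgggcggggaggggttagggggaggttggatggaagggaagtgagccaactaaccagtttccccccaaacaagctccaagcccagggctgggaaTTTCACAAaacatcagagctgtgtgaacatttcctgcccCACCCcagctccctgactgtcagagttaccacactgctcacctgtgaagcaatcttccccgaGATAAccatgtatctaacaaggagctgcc
Ngp: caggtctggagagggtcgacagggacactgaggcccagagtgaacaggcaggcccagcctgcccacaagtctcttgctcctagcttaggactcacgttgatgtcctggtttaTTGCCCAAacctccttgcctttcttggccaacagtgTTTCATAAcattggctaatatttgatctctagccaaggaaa
Lcn2: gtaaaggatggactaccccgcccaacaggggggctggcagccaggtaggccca

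Over the whole 250 bases before the RefSeq start, the GATA and KLF1 motifs were each present in all 5 red cell promoters and in that of S100a9, and absent from those of S100a8, Ngp and Lcn2. Of all 32851 promoters, 22.6% held the GATA motif and 52.0% the KLF1 motif. The TATA box was found before the 5 red cell genes and S100a8, and in 22.8% of all promoters. In Alas2 it was read on both strands from overlapping letters. The C/EBP motif occurred 3 times before Ngp, 2 times before S100a9, and 1 time each before S100a8, Lcn2, Hbb-bs, Hba-a1 and Hba-a2, against 36.8% of all promoters. The Lcn2 match lay outside the stretch printed above. The NF-kB motif was found before no member and in 1.41% of all promoters. The windows of Hba-a1 and Hba-a2 shared a run of 247 bases, so their matches are not separate observations. A match is a description of these letters, and no binding was measured.

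The libraries held 28847989 to 41595972 counts each (median 31169386). Levels are given as CPM, a gene's count scaled to library size, with TMM normalization over the 24 libraries. Tob1, the gene targeted in the knockout, was at 33.7 to 44.4 CPM in the 12 libraries labelled WT and at 52.0 to 68.6 CPM in the 12 labelled Tob-KO. This is higher where loss would make it lower. Which exons these reads came from is not visible in gene counts, so directions below follow the labels, and Tob-KO means libraries labelled so. Markers of hippocampal neurons were abundant in every library, at a summed level of 2040 to 2469 CPM.

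Of the members, the haemoglobin genes were by far the most abundant. Per kilobase of exon, the mean level over the 24 libraries was 36.6 CPM for Hbb-bs and 26.4 CPM for Hba-a1, against 3.86 CPM for Hbb-bt, 2.88 CPM for Hba-a2 and 0.937 CPM for Alas2. The neutrophil genes and Lcn2 were lower, with 0.322 CPM per kilobase for S100a9, 0.187 CPM for S100a8, 0.186 CPM for Lcn2 and 0.0816 CPM for Ngp. A floor of 3 counts lay at 0.0719 to 0.104 CPM in these libraries, without scaling to exon length. On that scale the means were 0.168 CPM for S100a9, 0.130 CPM for S100a8 and 0.0998 CPM for Ngp, near the floor. Lcn2 had a mean of 0.487 CPM and ranged from 0.0282 to 4.74 CPM. Hbb-bs and Hbb-bt lie on chromosome 7 of GRCm38 (103826534 to 103828096 and 103812524 to 103813996, reverse strand). Hba-a1 and Hba-a2 lie on chromosome 11 (32283511 to 32284465 and 32296489 to 32297298, forward strand). Hbb-bs shares 58.7% of its 150-base windows with Hbb-bt, and Hba-a2 shares 65.7% with Hba-a1, so how counts divide between the copies is uncertain. Alas2 lies on chromosome X (150547375 to 150570638, forward strand), Ngp on chromosome 9 (110419747 to 110423012, forward strand) and Lcn2 on chromosome 2 (32384633 to 32388252, reverse strand). S100a8 and S100a9 are neighbours on chromosome 3 (90668978 to 90670035, forward strand, and 90692632 to 90695721, reverse strand).

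Hbb-bs was at 32.1, 26.5 and 37.0 CPM in the naive WT libraries, replicates 1 to 3, and at 64.2, 34.0 and 38.4 CPM in WT at 15 min. WT libraries held 37.5, 25.1 and 28.1 CPM at 1 h and 21.2, 22.1 and 28.0 CPM at 3 h. Libraries labelled Tob-KO held 23.1, 23.4 and 22.6 CPM when naive, 27.3, 20.8 and 27.2 CPM at 15 min, 31.5, 21.3 and 22.8 CPM at 1 h, and 23.5, 19.0 and 18.9 CPM at 3 h. Replicate 1 of WT at 15 min stood above the other 23 libraries, whose highest value was 38.4 CPM. Group means ran from 45.6 ± 16.3 CPM (SD, n = 3) in WT at 15 min through 31.9 ± 5.27 in naive WT and 30.2 ± 6.51 in WT at 1 h. They then fell through 25.2 ± 5.50 in Tob-KO at 1 h, 25.1 ± 3.71 in Tob-KO at 15 min, 23.8 ± 3.67 in WT at 3 h and 23.1 ± 0.416 in naive Tob-KO to 20.5 ± 2.61 in Tob-KO at 3 h. The ranges of each group and the next in this order overlapped.

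Alas2, which encodes an enzyme and not a globin, followed the same libraries. It was at 2.81, 1.61 and 3.27 CPM in naive WT, 5.58, 3.12 and 3.62 CPM in WT at 15 min, 2.93, 1.77 and 1.92 CPM in WT at 1 h, and 1.54, 1.70 and 2.31 CPM in WT at 3 h. In Tob-KO it was at 1.90, 2.51 and 1.48 CPM in naive mice, 1.79, 1.07 and 1.82 CPM at 15 min, 2.70, 1.46 and 1.87 CPM at 1 h, and 2.44, 1.24 and 1.61 CPM at 3 h. The highest value was again in replicate 1 of WT at 15 min. That library exceeded the median of the other 23 by 2.99-fold for Alas2, 2.56-fold for Hbb-bs, 2.42-fold for Hbb-bt, 2.86-fold for Hba-a1 and 2.37-fold for Hba-a2. The 3 remaining globins had the same library on top, with Hba-a1 between 12.8 and 52.4 CPM, Hbb-bt between 1.47 and 6.25 CPM, and Hba-a2 between 1.16 and 4.35 CPM over all libraries.

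The proportion of the 2 most abundant globins varied less than the red cell level. The ratio of Hbb-bs to Hba-a1 counts ranged from 1.23 to 1.54 over the 24 libraries (1.26-fold), with a median of 1.31. The summed red cell level ranged from 36.1 to 132.8 CPM (3.67-fold), and over 2.19-fold without replicate 1 of WT at 15 min. Proportions of the less abundant members varied about as much as the level did without that library. Per 100 Hbb-bs counts there were 5.15 to 10.7 Alas2 counts (2.08-fold) and 6.36 to 13.0 Hbb-bt counts (2.05-fold). Replicate 1 of WT at 15 min, with 8.69 Alas2 counts per 100 Hbb-bs counts, was within these ranges. The other enzymes of haem synthesis, which every cell uses, did not share the spread, since their summed level stayed between 243.7 and 267.2 CPM in every library.

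**Figure D1:**
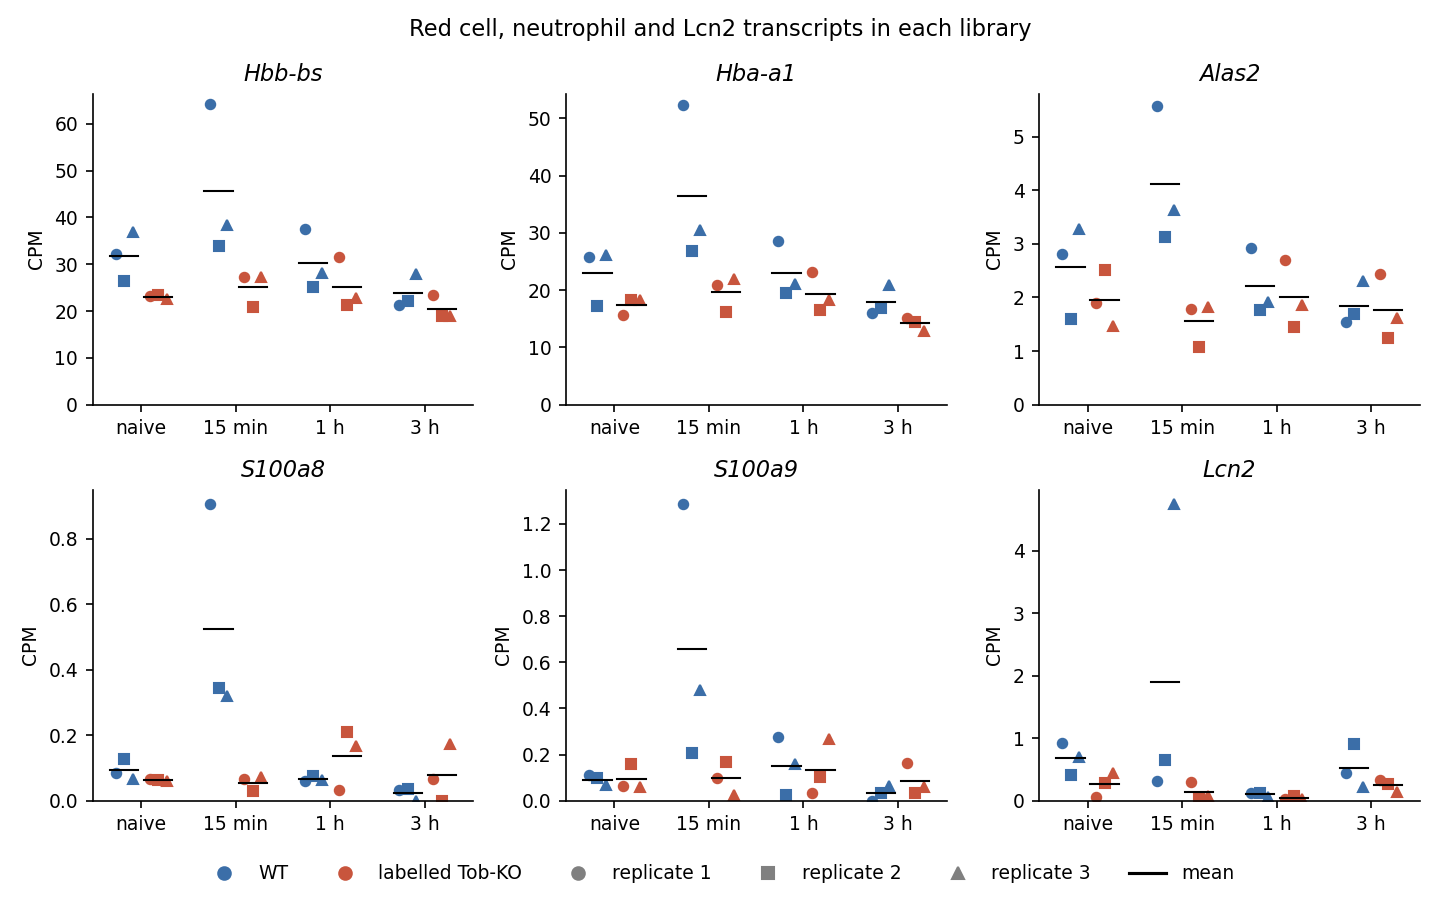
CPM of 3 red cell genes (top), 2 neutrophil genes and Lcn2 (bottom) in each of the 24 libraries, by time point. Blue is WT and red is labelled Tob-KO, the marker shape is the replicate number and the black line is the mean of 3 mice. Replicate 1 of WT at 15 min is on top for Hbb-bs (64.2 CPM), Hba-a1, Alas2, S100a8 and S100a9, whereas replicate 3 of that group is on top for Lcn2 (4.74 CPM).

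S100a8 was counted 3, 4 and 2 times in naive WT, 31, 10 and 10 times in WT at 15 min, 2, 3 and 2 times in WT at 1 h, and 1, 1 and 0 times in WT at 3 h. In Tob-KO there were 2, 2 and 2 counts in naive mice, 2, 1 and 3 at 15 min, 1, 6 and 5 at 1 h, and 2, 0 and 6 at 3 h. Only the WT libraries at 15 min reached 10 counts, and as CPM (0.905, 0.343 and 0.321) they did not overlap with any other group.

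S100a9 was counted 4, 3 and 2 times in naive WT, 44, 6 and 15 times in WT at 15 min, 9, 1 and 5 times in WT at 1 h, and 0, 1 and 2 times in WT at 3 h. In Tob-KO there were 2, 5 and 2 counts in naive mice, 3, 6 and 1 at 15 min, 1, 3 and 8 at 1 h, and 5, 1 and 2 at 3 h. Here the WT group at 15 min overlapped with both groups at 1 h.

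Ngp behaved differently from calprotectin within the same group. WT libraries at 15 min had 34, 0 and 0 counts of Ngp, and the other WT libraries had 3, 1 and 0 when naive, 6, 5 and 1 at 1 h, and none at 3 h. In Tob-KO there were 0, 3 and 0 counts in naive mice, 3, 1 and 0 at 15 min, 2, 5 and 5 at 1 h, and 2, 5 and 3 at 3 h. One library thus held 34 of the 50 Ngp counts of WT and 109 of the 211 counts of the 3 neutrophil genes in WT. At these counts a difference of a few reads is within counting error, which for 3 counts spans 0.619 to 8.77 (95% exact Poisson interval, counting error only).

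Other genes of the 2 cell types, from lists beside the members, were examined in the same library, and the names that follow were chosen after their values were seen. In replicate 1 of WT at 15 min the granule genes Ltf, Retnlg, Mmp8 and Camp had 29, 7, 8 and 6 counts, against 29, 4, 10 and 10 in the other 23 libraries together. Slc4a1, the anion exchanger of the red cell membrane, had 23 counts there and 117 elsewhere. The defining markers Epb42 (red cell) and Ly6g (neutrophil) had 0 and 1 counts in that library. Csf3r and Pglyrp1, the most abundant genes of the neutrophil list, were at 5.81 and 3.59 CPM there, which was not their peak. They reached 6.80 and 4.30 CPM in naive Tob-KO libraries. At 15 min both lay wholly below WT in Tob-KO, as did 6.83% of all genes, with log2 fold changes of -0.23 and -0.73. Neither was called. Sptb and Tmcc2, the most abundant genes of the red cell list, did not peak in that library either. They were at 354.2 and 312.3 CPM there and up to 420.9 and 376.5 CPM elsewhere, and their groups overlapped at 15 min. The correlation of these genes with the members was not measured. Both lists hold genes that brain cells also express. The summed lymphocyte markers, mostly Ighm, were also highest in that library, at 12.5 CPM against 6.65 to 11.6 CPM in the others, and Ms4a1, a B cell marker, had 8 counts there and 9 elsewhere. The part of these other cell types in the members' levels was not tested.

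Lcn2 was at 0.926, 0.418 and 0.693 CPM in naive WT, 0.321, 0.652 and 4.74 CPM in WT at 15 min, 0.122, 0.127 and 0.0629 CPM in WT at 1 h, and 0.435, 0.90 and 0.218 CPM in WT at 3 h. In Tob-KO it was at 0.0653, 0.283 and 0.443 CPM in naive mice, 0.298, 0.0282 and 0.0719 CPM at 15 min, 0.0333, 0.0694 and 0.0333 CPM at 1 h, and 0.330, 0.260 and 0.144 CPM at 3 h. The highest library was replicate 3 of WT at 15 min, with 148 counts. Replicate 1 of that group, where all 8 other members peaked, had 11 counts of Lcn2 and was 1.23-fold above the median of the other 23 libraries, while replicate 3 was 18.2-fold above it. Per 1000 red cell counts there were 2.42 Lcn2 counts in replicate 1 and 59.9 in replicate 3, with a range of 0.533 to 59.9 over all libraries. The group means of Lcn2 ran from 1.91 ± 2.46 CPM in WT at 15 min through naive WT (0.679 ± 0.255), WT at 3 h (0.518 ± 0.348), naive Tob-KO (0.264 ± 0.189), Tob-KO at 3 h (0.245 ± 0.0940), Tob-KO at 15 min (0.133 ± 0.145) and WT at 1 h (0.104 ± 0.0356) to Tob-KO at 1 h (0.0454 ± 0.0208). Here too each group overlapped with the next. In replicate 3 of WT at 15 min, Lrg1, an inflammatory glycoprotein of endothelium, and Ch25h, which encodes cholesterol 25-hydroxylase, were also at their highest of the 24 libraries, at 1.92 and 0.994 CPM. Lrg1 was named after its values were seen. The lists that hold these 2 genes were not high in that library. The genes of endothelial activation, with Lrg1, summed to 52.3 CPM there against a median of 57.6 CPM. The inflammatory genes, with Ch25h, summed to 45.1 CPM against a median of 50.3 CPM.

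Movement across libraries was then measured for the 36 pairs of the 9 genes, as correlations of log2 CPM over the 24 libraries with p-values from 100000 permutations, adjusted over the 36 pairs. Red cell transcripts rose and fell together. All 10 pairs of red cell genes passed an adjusted p of 0.05, with Pearson's r from 0.779 to 0.976 (median 0.882), and all 10 passed with Spearman's rho as well, from 0.717 to 0.927. Hbb-bs and Hba-a1 gave r = 0.976 and rho = 0.927 (permutation p = 1e-05 for each, the smallest possible, adjusted p = 4e-05 and 6e-05). Hbb-bs and Alas2 gave r = 0.902 and rho = 0.882 (the same p-values). Without the 2 libraries farthest from the median of Hbb-bs, which were replicates 1 and 3 of WT at 15 min, r was 0.95 and 0.831. As deviations from the group means, which removes genotype and time, r of the 10 pairs was 0.618 to 0.95 and all 10 still passed. In the 12 WT libraries alone r was 0.899 to 0.985 and all 10 passed. In the 12 libraries labelled Tob-KO, where Hbb-bs ranged only from 18.9 to 31.5 CPM, r was 0.263 to 0.902 and 1 pair passed.

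Red cell and neutrophil transcripts moved together by r, but this depended on the WT libraries at 15 min, above all on replicate 1. Over the 24 libraries 11 of 15 pairs passed, with r from 0.284 to 0.678 (median 0.561). By rank only 1 pair passed, Alas2 with S100a9 (rho = 0.523, permutation p = 0.0102, adjusted p = 0.0334). Hbb-bs and S100a8 gave r = 0.585 (permutation p = 0.00495, adjusted p = 0.0103) and rho = 0.340 (permutation p = 0.106, adjusted p = 0.212). Without the 2 farthest libraries r was 0.127. Hbb-bs and S100a9 gave r = 0.677 (permutation p = 0.00093, adjusted p = 0.00223) and rho = 0.476 (permutation p = 0.0209, adjusted p = 0.0627), and r was 0.292 without the 2 farthest libraries. When replicate 1 of WT at 15 min was left out, none of the 15 pairs passed and the median r was 0.252. None passed as deviations from the group means (median r 0.355), and without the whole WT group at 15 min the median r was 0.00988. In WT alone 13 pairs passed, and in Tob-KO alone none did, with r from -0.449 to 0.438.

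The sums over each kind of transcript show the same. The 3 neutrophil genes together ranged from 0.0335 to 3.18 CPM, with a median of 0.254 CPM. Replicate 1 of WT at 15 min was first and replicate 3 was second in both sums, at 132.8 and 79.2 CPM of red cell and 3.18 and 0.801 CPM of neutrophil transcripts. Next in the neutrophil sum was replicate 3 of Tob-KO at 1 h with 0.600 CPM, which was 15th in the red cell sum. At 3 h neutrophil counts were higher in Tob-KO, while the red cell sums of the genotypes overlapped. WT libraries then held 1, 2 and 2 neutrophil counts and Tob-KO libraries 9, 6 and 11, while the red cell sum was 42.2, 44.0 and 56.1 CPM in WT and 44.5, 38.6 and 36.1 CPM in Tob-KO. This difference in neutrophil counts was not tested. Per 1000 red cell counts there were 0.793 to 24 neutrophil counts, and 24 was that of replicate 1 of WT at 15 min. The low end, in replicate 1 of WT at 3 h, rests on 1 neutrophil count. Counting error alone widens such a range, so its width cannot be compared with that of the ratios among red cell genes.

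The neutrophil genes followed each other less firmly than the globins, but on far fewer counts. Their median count over the 24 libraries was 2 for S100a8, 3 for S100a9 and 1.5 for Ngp, against 823 for Hbb-bs. Counts this low limit what r can show, here and for the red cell with neutrophil pairs. All 3 pairs passed by r over the 24 libraries, with r = 0.741 for S100a8 and S100a9 (permutation p = 0.00014, adjusted p = 0.000458) and rho = 0.442 (permutation p = 0.0311, adjusted p = 0.0819). None of the 3 passed by rank or as deviations from the group means. Without replicate 1 of WT at 15 min, S100a8 and S100a9 still passed with r = 0.558, whereas the pairs with Ngp did not.

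Lcn2 followed neither kind to an extent that passed the test. With the 5 red cell genes r was 0.255 to 0.411 and none passed, the closest being Alas2 (r = 0.411, rho = 0.288, permutation p = 0.0475 and 0.172, adjusted p = 0.0685 and 0.269). With Hbb-bs r was 0.326 (permutation p = 0.120, adjusted p = 0.154) and rho was 0.271 (permutation p = 0.199, adjusted p = 0.298). As deviations from the group means these r were -0.230 to -0.0314. With the 3 neutrophil genes r was -0.262 to 0.254, with S100a8 at 0.254 (permutation p = 0.230, adjusted p = 0.237) and rho at 0.230 (permutation p = 0.280, adjusted p = 0.360), and Ngp at the lower end (permutation p = 0.213, adjusted p = 0.232, rho = -0.351, permutation p = 0.0917, adjusted p = 0.201). A p that misses the threshold does not show that the levels are unrelated, and counts of Lcn2 under 10 in 14 libraries limit what r can show.

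**Figure D2:**
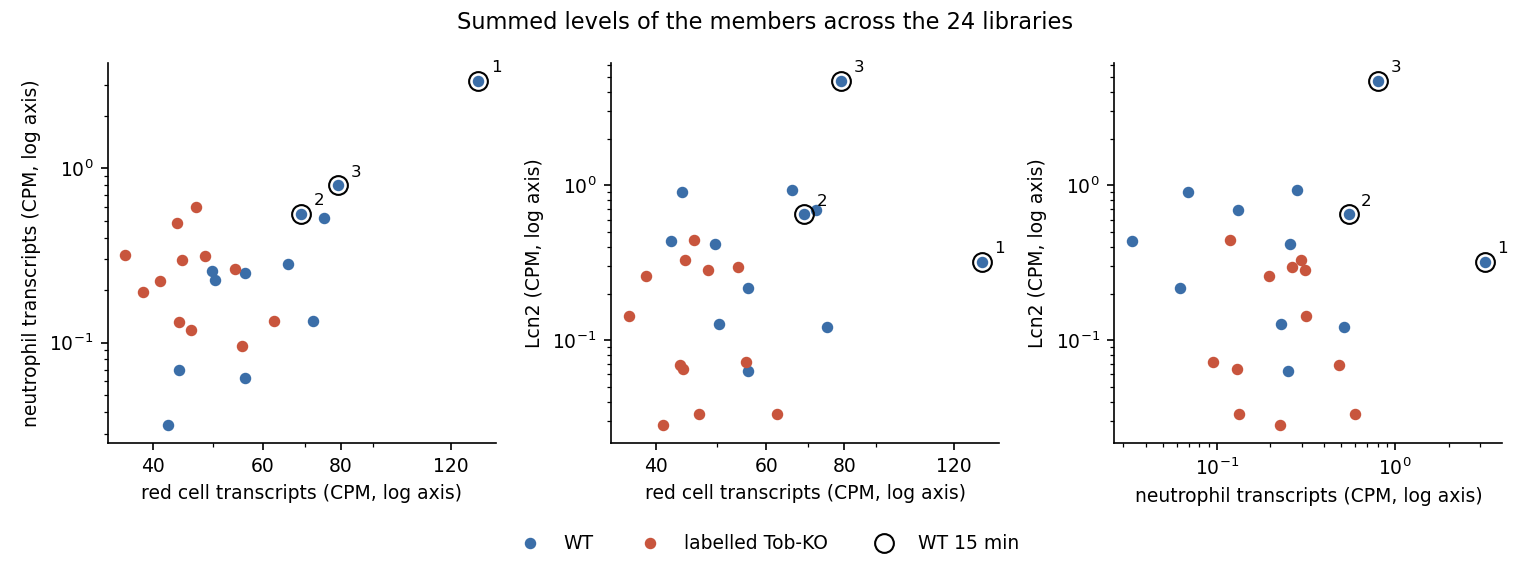
Summed CPM of the 5 red cell and the 3 neutrophil genes and CPM of Lcn2 in the 24 libraries, on log axes. Blue is WT, red is labelled Tob-KO, and rings mark the WT libraries at 15 min with their replicate numbers. Replicate 1 is apart in red cell (132.8 CPM) and neutrophil (3.18 CPM) transcripts, and replicate 3 is apart in Lcn2 (4.74 CPM).

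**Figure D3:**
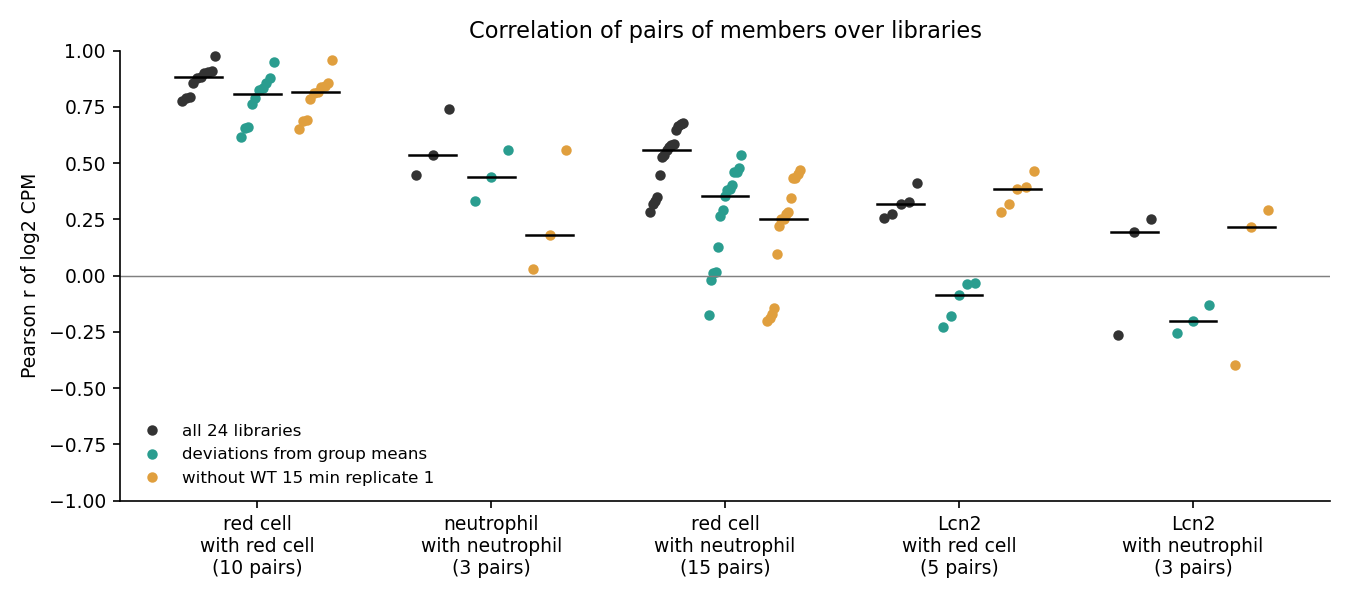
Pearson's r of log2 CPM for the 36 pairs, by kind of pair, over all 24 libraries (black), as deviations from group means (green) and without replicate 1 of WT at 15 min (orange). Points are pairs and lines are medians. Red cell pairs keep r of at least 0.618 in each case, and the median of red cell with neutrophil pairs is 0.561, 0.355 and 0.252.

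For context, the genes other than members whose levels were most like those of 3 members over the 24 libraries were listed. They were ranked among 15676 genes with a mean of at least 0.5 CPM. For Hbb-bs they were 1700016P03Rik (r = 0.780), Dedd (0.765), Cyr61 (0.731), Rhobtb1 (0.727) and Ier3 (0.722). For S100a8 they were Hdac5 (0.709), Tmem184b (0.678), Gm26982 (0.675), Myo1c (0.671) and Cbx8 (0.657). For Lcn2 they were Mrps17 (0.784), Polq (0.782), Slc39a3 (0.765), Ocel1 (0.756) and D2Wsu81e (0.749). All 15 were chosen as the highest of many, so the values are descriptions. As deviations from the group means, their r was 0.359 (Slc39a3) to 0.694 (Cyr61). The highest library of each was a WT library at 15 min, and the 3 lists shared no gene.

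For each time point the genotypes were compared by the exact test of edgeR over all genes that passed a filter on low counts. A gene was called when its false discovery rate (FDR, the adjusted p) and p were at most 0.05 and its change was at least 2-fold. At 15 min 2 members were called, Alas2 and S100a8, both lower in Tob-KO. Of all 18364 genes tested, 0.555% were called in either direction and 0.0980% were called lower. The members were chosen with earlier results known, so shares over all genes, here and below, are descriptions and not a test. For Alas2 the log2 fold change was -1.39 (standard error 0.275, edgeR FDR 0.00325), from 4.11 ± 1.30 CPM in WT to 1.56 ± 0.425 CPM in Tob-KO, and its groups did not overlap. Without replicate 2 of Tob-KO neither member was called, without replicate 3 of Tob-KO only Alas2 was, and without replicate 2 of WT Hbb-bs, Hbb-bt, Hba-a1, S100a9 and Lcn2 were called as well. Lcn2 was also called without the filter, with dispersion from 24 libraries, without replicate 1 of WT and without replicate 1 of Tob-KO. DESeq2 called Alas2 and not S100a8, and edgeR's quasi-likelihood test called none of all genes at 15 min (1577 genes had an unadjusted p under 0.05).

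S100a8 at 15 min had 51 counts in WT and 6 in Tob-KO, a ratio of 9.65 per count sequenced (95% counting interval 4.14 to 27.5). Its fitted log2 fold change was -3.16 (standard error 0.644, edgeR FDR 0.00314), but with 2, 1 and 3 counts in Tob-KO this value depends on the prior count of the fit. Without replicate 1 of WT the ratio was 5.93 (2.30 to 18.1). S100a8 reached 0.2 CPM in all 3 WT libraries and in no Tob-KO library, so it passed the filter only through the group where it was high.

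The other members were not called at 15 min. All 5 red cell genes had an unadjusted p under 0.05 there, as did 8.05% of all genes. For Hbb-bs the log2 fold change was -0.86 (standard error 0.216, edgeR FDR 0.0251) and for Hba-a1 -0.88 (standard error 0.229, edgeR FDR 0.0312), both under the 2-fold limit. Hbb-bt had -0.93 (edgeR FDR 0.110) and Hba-a2 -0.95 (edgeR FDR 0.218). S100a9 had 65 counts in WT and 10 in Tob-KO, a ratio of 7.38 (95% counting interval 3.77 to 16.1) and of 3.74 (1.68 to 8.89) without replicate 1 of WT, with an edgeR FDR of 0.0751. Ngp, with 34 and 4 counts, did not reach the filter, and without that replicate it had 0 counts in WT and 4 in Tob-KO. Lcn2 had 178 and 13 counts, a ratio of 15.5 (8.86 to 29.8) and an edgeR FDR of 0.0554. Without replicate 3 of WT the ratio was 3.91 (1.98 to 8.17). Like S100a8, these genes passed the filter only through WT, since 0.2 CPM was reached in 3 WT libraries for each, and in 0 Tob-KO libraries for S100a9 and 1 for Lcn2. The ratios of S100a9 and Lcn2 shrank without a single library, and that library was not the same for both.

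Other cell types differed between the same libraries at 15 min. All 10 choroid plexus genes were called higher in Tob-KO, with Ttr (transthyretin) and Kl (klotho) at log2 fold changes of 6.89 (edgeR FDR 0.000422) and 2.09 (edgeR FDR 0.0230). Their summed level was 28.7, 48.9 and 47.2 CPM in WT at 15 min against 46.5 to 4956 CPM in all others. The summed endothelial markers were at 265.8, 342.3 and 282.7 CPM in WT at 15 min, above the 175.1 to 262.9 CPM of the other 21, and none of the 8 was called. No gene was called among 5 platelet, 3 lymphocyte, 7 further neutrophil and 10 further red cell genes tested. Ch25h (log2 fold change -1.58, edgeR FDR 0.0296) and Hif3a (-1.24, edgeR FDR 0.000461), from lists of inflammatory and glucocorticoid-responsive genes, were called lower. The part of these differences in the results for the members was not tested. In bulk RNA, fewer cells of a type and less RNA per cell cannot be told apart.

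The log2 fold changes of the red cell genes were below 0 in Tob-KO at every time point, although none but Alas2 at 15 min was called. The 5 log2 fold changes had medians of -0.40 in naive mice, -0.93 at 15 min, -0.26 at 1 h and -0.22 at 3 h, against medians between -0.01 and 0.01 over all genes. All 20 values were below 0, and of all 17572 genes tested at each time point 11.0% were below 0 at all 4. Since these genes move together, the 20 values are not separate observations. The Tob-KO libraries lay wholly below the WT libraries for 2 of 5 red cell genes in naive mice (6.00% of all genes), 5 of 5 at 15 min (6.83%), 1 of 5 at 1 h (5.84%) and 2 of 5 at 3 h (5.71%). No member was called in naive mice, at 1 h or at 3 h, where 0.0218%, 0.0330% and 0.0274% of all genes were. An unadjusted p under 0.05 was found for 3, 0 and 1 of the 6 members tested, against 4.04%, 5.34% and 3.97% of all genes, and DESeq2 called no member. In naive mice Hbb-bs had -0.46 (standard error 0.115, edgeR FDR 0.478) and Lcn2 -1.34 (standard error 0.558, edgeR FDR 1).

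Over all 24 libraries, with time point as a factor, none of the members was called by edgeR's quasi-likelihood test at an FDR of 0.05, against 0.462% of 19500 genes. The values were close to the limit. For Hba-a1 the log2 fold change was -0.48 (standard error 0.112, edgeR FDR 0.0551), Hbb-bs -0.46 (0.110, edgeR FDR 0.0562), Hba-a2 -0.51 (0.127, edgeR FDR 0.0637) and Lcn2 -2.05 (0.505, edgeR FDR 0.0619). Hbb-bt and Alas2 had -0.42 and -0.51 (edgeR FDR 0.214 and 0.231), and S100a8 and S100a9 had -0.81 and -0.93 (edgeR FDR 0.507 and 0.437). Unadjusted p was under 0.05 for all but S100a8 and S100a9 of the 8 members tested, and for 13.3% of all genes. DESeq2 called Hbb-bs, Hba-a1, Hba-a2 and Lcn2 in this comparison. EdgeR called 3 members without replicate 2 of naive WT, and 2 without replicate 1 of WT at 15 min, of Tob-KO at 1 h or of Tob-KO at 3 h.

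**Figure D4:**
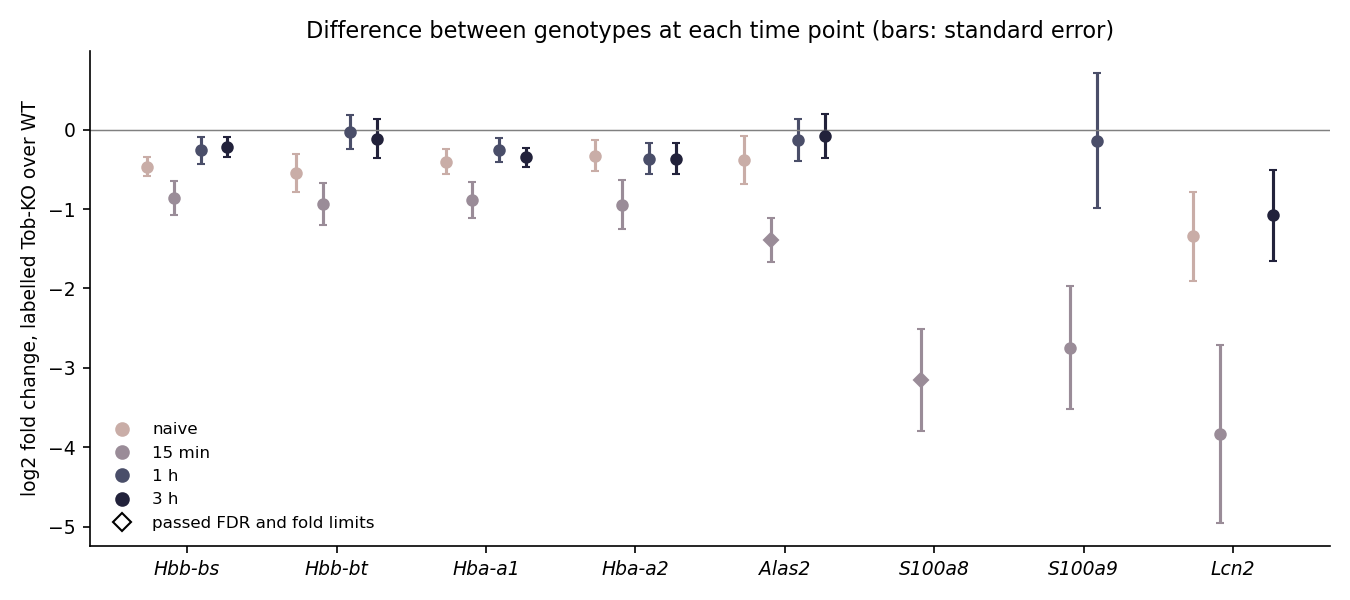
Log2 fold change of the libraries labelled Tob-KO over WT (edgeR) for 8 members at each time point, with quasi-likelihood standard errors as bars. Points are 4 comparisons of 3 against 3 mice, diamonds mark Alas2 and S100a8 at 15 min, the only calls, and members that did not reach the filter have no point. The 20 red cell values are below 0, from -1.39 to -0.03.

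The change after conditioning was tested within each genotype, with the same limits and edgeR's quasi-likelihood test. These comparisons share their libraries with those of the genotypes. No member was called in WT at 15 min, 1 h or 3 h against naive mice, where 0%, 0.0110% and 0% of all genes were, nor in Tob-KO, where 0.0218%, 0.0491% and 0% were. An unadjusted p under 0.05 was found in WT for 6, 1 and 1 members, against 6.10%, 9.88% and 3.49% of all genes. In Tob-KO it was found for 0, 1 and 2 members, against 13.2%, 14.4% and 8.61%, and DESeq2 called no member in either genotype. In WT at 15 min against naive, the log2 fold change was 2.46 for S100a8 (standard error 0.596), 2.80 for S100a9 (0.726) and 1.47 for Lcn2 (0.837), with an edgeR FDR of 0.786, 0.786 and 0.843. S100a8 and S100a9 reached 0.2 CPM in no naive WT library, so both entered this test only through the 15 min group where they were high. Without replicate 3 of WT at 15 min the value of Lcn2 was -0.51. The red cell genes ranged from 0.41 to 0.68 in that comparison. At 1 h against naive mice Lcn2 had log2 fold changes of -2.65 in WT (standard error 0.465, edgeR FDR 0.113) and -2.47 in Tob-KO (0.822, edgeR FDR 0.241), while Hbb-bs had -0.08 and 0.13. The exact test, run as an alternative, called Lcn2 at 1 h in WT (edgeR FDR 0.000145). Lcn2 reached 0.2 CPM in no library at 1 h, so it entered these tests only through the naive mice, where it was high.

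Whether the genotype difference itself changed from naive mice to 15 min, 1 h or 3 h was tested as an interaction over 12 libraries, without a fold limit. No member was called, by edgeR or DESeq2, and 0.00526%, 0% and 0% of all genes were called by edgeR. Unadjusted p was under 0.05 for 3, 0 and 0 members, and for 3.37%, 3.68% and 4.66% of all genes. At 15 min the interaction was -1.0 for Alas2 (standard error 0.444), -2.61 for S100a8 (0.989), -2.78 for S100a9 (1.22) and -2.56 for Lcn2 (1.51) on the log2 scale, each with an edgeR FDR of 0.999. Of these 12 libraries S100a8 and S100a9 reached 0.2 CPM only in WT at 15 min, the group through which they were tested. A difference at 15 min that is not present in naive mice was therefore not shown for any member.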

How the data were processed

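Hippocampal poly(A) RNA of 24 mice was sequenced from directional libraries with 150-bp paired reads. The authors mapped reads with STAR 2.6.1d to GRCm38 and deposited raw counts per gene from HTSeq 0.9.0, as whole numbers without normalization. The annotation release, the strand setting and the treatment of duplicates and multiply mapping reads are not given in the sources used here. Reads carry no molecular identifiers, so intervals cover counting error only.

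Groups and replicate numbers came from the sample labels. The members and gene lists were chosen with earlier results of these data known. A gene entered a test when 2 or more of its libraries reached 0.2 CPM, and p-values were adjusted over all of them. Comparisons of genotypes used edgeR 4.0.16 (R 4.3.3), with the exact test after TMM, as in the study's methods. Changes over time, interactions and the genotype difference over all time points used its quasi-likelihood test. Standard errors were derived from the log2 fold change and F statistic of that test, also where the FDR is from the exact test. DESeq2 1.42.0 was an alternative. Correlations used log2 CPM (prior count 2) and 100000 two-sided permutations in SciPy 1.17.1 and NumPy 2.4.6 (Python 3.11.15, pandas 2.3.3). An edgeR fit of each kind of comparison, and the correlations, were tested on simulated data. Changes in counts were simulated only in genes more abundant than the neutrophil genes. DESeq2 and the other alternative fits were not tested in this way. Chi-square per degree of freedom between libraries of a group was 3.68 to 22.8, so replicates differed by more than sampling noise. Coordinates are 1-based (GENCODE M21 and RefSeq).

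Named genes were the 9 members, Tob1, and the 5 genes other than members most correlated with each of Hbb-bs, S100a8 and Lcn2. From the lists beside a result, called genes and the 2 most abundant were also named. Others are marked as chosen after their values were seen. Alternatives were another test or normalization, no filter, dispersion from 24 libraries, a replicate block and leaving out each library.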

Additional observations from a re-analysis of the deposited data

How the results depend on the processing

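Of 346 alternative values for counts of members or pairs, 315 stayed within 1.5 times the reported count. Most reported counts of members called were 0, and a 0 that stayed 0 is among the 315. Of 626 alternatives for single values, 555 kept their direction and side of the threshold, 28 lost a call, 32 gained one and 11 reversed. For genotypes at 15 min, 2 members were called, against 0 with the quasi-likelihood test, 1 with DESeq2, 0 with a replicate block, 3 without the filter, 3 with dispersion from 24 libraries and 0 to 7 when 1 library was left out (7 without replicate 2 of WT, 0 without replicate 2 of Tob-KO). Calls over all genes there were 102, against 0 with the quasi-likelihood test, 35 with DESeq2, 6 with the block, 16 with dispersion from 24 libraries and 30 to 252 with 1 library left out. Over all time points 0 members were called, against 4 with DESeq2, 3 without the filter, 2 with a replicate block and 0 to 3 with 1 library left out. For WT at 15 min against naive, 1 member (S100a9) was called without the filter, and at 1 h 1 member (Lcn2) with the exact test and without the filter. Same-numbered libraries did not deviate together in every pair of any comparison (correlations -0.418 to 0.360), so they were not treated as paired, and the replicate block changed no other count of members called. Red cell with neutrophil pairs passing fell from 11 to 0 as deviations from group means, 1 by Spearman's rho, 0 in Tob-KO alone, and 0 to 11 with 1 library left out. Neutrophil pairs fell from 3 to 0, 0, 0 and 1 to 3 in the same order. Both kinds had 0 without replicates 1 and 3, or without any library, of WT at 15 min, choices made after seeing the data. Red cell pairs fell from 10 to 1 in Tob-KO alone, and Lcn2 with red cell pairs were 0 to 1 with 1 library left out. Reversed values were Lcn2 in WT at 15 min against naive (-0.51 to 1.98 with 1 library left out, the lowest without replicate 3). Others were r of Hbb-bs with S100a8 (-0.136 in Tob-KO alone, -0.0632 without WT at 15 min), Hbb-bs with S100a9 (-0.189 in Tob-KO alone), Hbb-bs with Lcn2 (-0.180 as deviations, -0.161 in Tob-KO alone), Alas2 with Lcn2 (-0.0314 as deviations), S100a8 with Lcn2 (-0.201 as deviations, -0.216 in Tob-KO alone, -0.168 without WT at 15 min) and Ngp with Lcn2 (0.0138 in Tob-KO alone). The causes were not tested. All 20 red cell genotype differences stayed below 0 with the quasi-likelihood test, DESeq2, no TMM, no filter, dispersion from 24 libraries and the replicate block, alternatives added after seeing the data. The neutrophil genes rest on few counts per library, and the smallest difference detectable there was not measured.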
